A study of Mus musculus with 4 samples.

Results

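Interferon-stimulated genes are the genes that cells switch on when interferons, the signal proteins of antiviral defence, bind them. The set described here holds 43 of them, listed by name, though with earlier results of these data known. All 43 were among the 14697 genes of the UMI (unique molecular identifier) table. Each gene, and the sum of all, was followed across cell types of mouse blood and in each blood pool singly. The blood came from C57BL/6 female mice fed ad libitum under standard housing, and the 2 groups were young mice of 4 months and old mice of 24 months. Cells of 2 mice were pooled before each library was made, so that 2 young pools (young 1 and young 2) and 2 old pools (old 1 and old 2) were sequenced, without a record of which mouse gave which cell. No mouse carried a labelled mutation or received a labelled treatment. White cells were enriched on a density gradient, after which red cells were lysed. The pool is the replicate (n = 2 per age). P-values for age rest on the spread between pools of the same age. Those between types rest on the spread that remains once the level of each pool is removed. Both draw on spread estimates shared across genes, so they do not measure the spread of 1 gene alone.

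Type I interferons bind the receptor IFNAR on almost every cell, the kinases JAK1 and TYK2 then signal to the factor ISGF3, which holds STAT2 and IRF9 and binds the interferon-stimulated response element (ISRE) in the promoters of target genes. Interferon gamma, made mainly by NK and T cells, works through its own receptor. The target genes encode sensors of foreign nucleic acid, enzymes and binding proteins that block viral RNA, GTPases that attack the vacuoles of intracellular microbes, and the signalling proteins themselves, so that a first signal strengthens later ones. Blood cells keep a low level of these genes in health, and monocytes and dendritic cells are known for strong induction.

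The promoters of some members carry the ISRE core in plain sight. RefSeq promoters of build GRCm38.p6 (mm10, the build of the counts), from 250 bases before to 50 after each start, were found for 34 of the 43 members. Both strands were searched for the ISRE core (GAAA, any 2 bases, GAAA) and for the STAT dimer site TTCNNNGAA, where N is any base; the letters of these motifs can overlap. At least 1 ISRE core was present in 19 of the 34 members (55.9%), against 3.99% of the 27025 genes with a promoter, and 8 of the 34 members held 2 or more. TTCNNNGAA was present in 8 of the 34 (23.5%), against 9.55% of all genes, and 12 members held neither. A match is a description of letters and not a shown binding site. No promoter was found for Dhx58, Zbp1, Ifi204, Usp18, Parp9, Parp14, Rtp4, Ifi27l2a and Ifi27. The promoters of Isg15, Ifit1 and Ifit3 are shown because these genes differ strongly between the monocyte types below, and those of Irf7 and Slfn2 because both are members with many UMIs whose windows held no match. Each runs 5′ to 3′ on the strand of its gene, and capitals mark the ISRE core on either strand.
Isg15 (chr4:156200769-156201068, minus strand): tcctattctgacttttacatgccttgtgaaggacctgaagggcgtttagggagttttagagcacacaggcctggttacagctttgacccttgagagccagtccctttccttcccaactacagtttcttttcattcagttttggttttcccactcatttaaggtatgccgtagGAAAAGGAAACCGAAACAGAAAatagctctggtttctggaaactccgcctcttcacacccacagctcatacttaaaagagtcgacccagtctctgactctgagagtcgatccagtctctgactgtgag
Ifit1 (chr19:34640639-34640938, plus strand): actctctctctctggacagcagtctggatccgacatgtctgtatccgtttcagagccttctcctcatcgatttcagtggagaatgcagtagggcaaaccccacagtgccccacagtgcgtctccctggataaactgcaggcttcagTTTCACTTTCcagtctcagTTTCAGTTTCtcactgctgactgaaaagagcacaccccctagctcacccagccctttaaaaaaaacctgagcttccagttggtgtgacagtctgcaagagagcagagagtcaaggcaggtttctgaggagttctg
Ifit3 (chr19:34583279-34583578, plus strand): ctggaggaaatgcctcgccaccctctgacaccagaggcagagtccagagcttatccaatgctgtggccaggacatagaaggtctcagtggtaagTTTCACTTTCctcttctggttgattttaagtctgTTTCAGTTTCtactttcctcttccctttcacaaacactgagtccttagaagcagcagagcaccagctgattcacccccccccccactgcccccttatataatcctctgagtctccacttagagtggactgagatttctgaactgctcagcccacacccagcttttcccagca
Irf7 (chr7:141266375-141266674, minus strand): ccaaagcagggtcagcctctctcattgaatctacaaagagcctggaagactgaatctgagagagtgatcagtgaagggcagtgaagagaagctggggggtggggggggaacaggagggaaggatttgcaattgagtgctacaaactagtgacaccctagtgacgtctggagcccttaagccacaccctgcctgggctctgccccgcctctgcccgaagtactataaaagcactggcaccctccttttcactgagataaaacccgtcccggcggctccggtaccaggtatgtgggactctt
Slfn2 (chr11:83064862-83065161, plus strand): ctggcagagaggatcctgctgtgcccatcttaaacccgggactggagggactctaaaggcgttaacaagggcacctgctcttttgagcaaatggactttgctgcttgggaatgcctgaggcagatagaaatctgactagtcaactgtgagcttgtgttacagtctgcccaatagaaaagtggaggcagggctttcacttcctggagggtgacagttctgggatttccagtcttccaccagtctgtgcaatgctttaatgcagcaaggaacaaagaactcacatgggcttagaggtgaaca
The 3 matches in Isg15, a ubiquitin-like protein, overlapped and began 78, 72 and 66 bases before the start. Those of Ifit1 and Ifit3, which bind viral RNA, began 104 and 85 and, respectively, 156 and 122 bases before it. Irf7, the transcription factor that amplifies interferon production, and Slfn2, a Schlafen protein of T cell and monocyte quiescence, had 0 matches in these windows.

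Cells were sorted into types by the raw UMIs of marker genes, none of which is a member, because the list of cells gives each cell's pool and no cell type. A class such as B cells needed at least 2 UMIs of its markers (among them Cd79a and Ms4a1 for B cells, Cd3d, Cd3e and Cd3g for T cells, Ncr1, Klrb1c and Klre1 for NK cells, Csf1r, Ms4a6c and Clec4a3 for monocytes) and at most 1 of any other class. B cells were split by Vpreb3 with Spib, Fcer2a or S100a6, Cd4 T cells by S100a6, Cd8 T cells by Ccl5, and monocytes by Ly6c2, which is high in classical and at 0 in nonclassical monocytes. Of 14588 cells, 11433 fell in a class and 7410 in 1 of 15 named types, and 1533 were left out for platelet or haemoglobin RNA. The pools held 3902 and 3857 young and 4642 and 2187 old cells, with median UMIs per cell of 2332 and 2233 (young) and 3187 and 3482 (old), and 108 cell barcodes occurred in more than 1 pool. B markers summed to between 3652 and 7516 CPM in the 4 B types, and T markers to between 2278 and 3129 CPM in the 2 T types tested. CPM are the UMIs of a gene or list scaled to an equal total for every sum. The markers are the genes that set the gates, so these sums are no independent check of them. Haemoglobin RNA remained in the gates and differed between pools of the same age. Its 4 markers summed to 4966, 28504, 22037 and 11829 CPM in Fcer2a B cells of young 1, young 2, old 1 and old 2. The part of haemoglobin RNA in the results below was not tested. Platelet RNA differed with age within the gates. In Fcer2a B cells its 3 markers summed to 1.38 and 6.19 CPM in young and 209 and 141 CPM in old pools, and in NK cells to 6.36 and 8.40 against 239 and 180 CPM, and its part in the results below was not tested.

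Classical monocytes carried the highest share of interferon-stimulated transcripts among the types with at least 50 cells. Members gave 0.835% and 0.744% of their UMIs in young pools and 1.25% and 0.750% in old pools, where S100a6-positive Cd4 T cells of old 2 came close (0.749%). Nonclassical monocytes held 0.397%, 0.393%, 0.545% and 0.420% in young 1, young 2, old 1 and old 2. Fcer2a B cells, the main follicular-type B cells of blood, held 0.284%, 0.276%, 0.402% and 0.271%. S100a6 B cells had 0.228%, 0.220%, 0.200% and 0.198%, and NK cells 0.220%, 0.198%, 0.214% and 0.183%. Counting error was small beside these gaps: the 95% Poisson interval was 0.788% to 0.884% for classical monocytes and 0.204% to 0.237% for NK cells of young 1. Intervals cover counting error only.

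**Figure D1:**
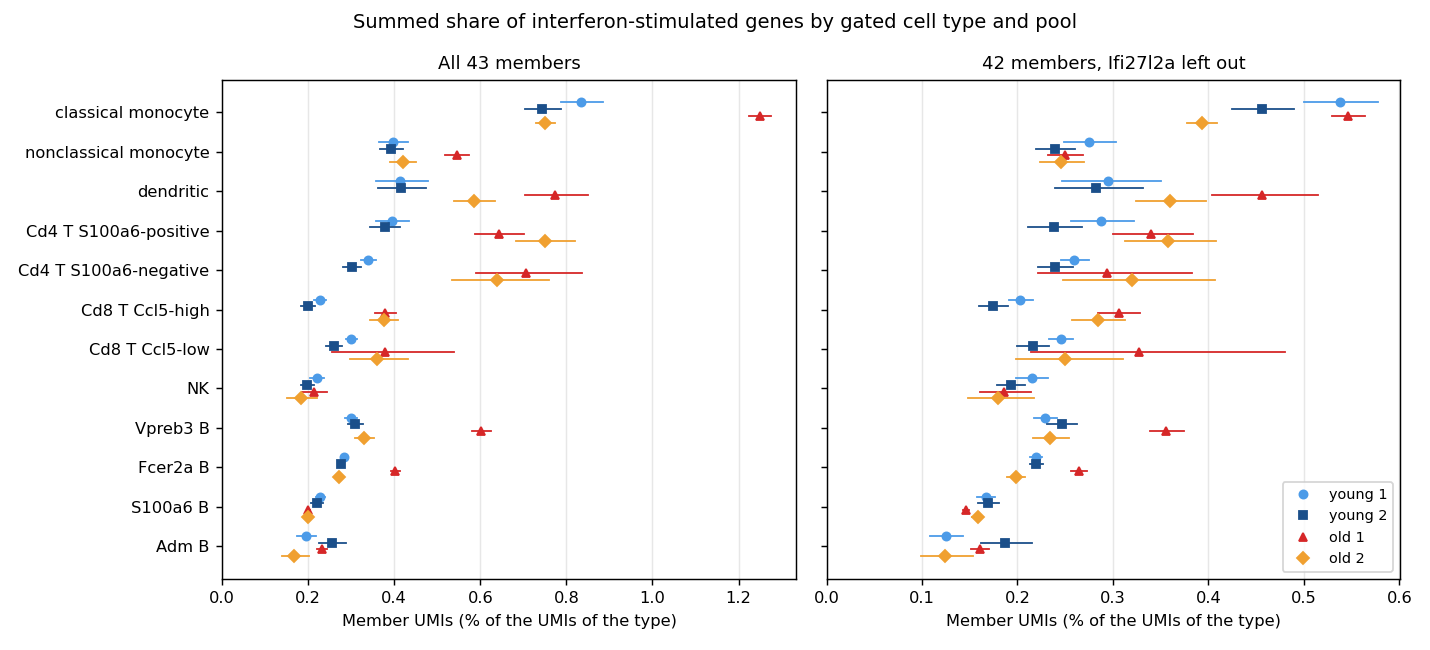
Percent of the UMIs of each gated cell type (y axis) that were of members (x axis), for all 43 members (left) and with Ifi27l2a left out (right, another x scale). Each point is 1 pool and lines are 95% Poisson intervals; classical monocytes of old 1 stand at 1.25% with Ifi27l2a and at 0.547% without it, beside 0.538% in young 1.

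A single gene made up much of that share. Ifi27l2a, a small hydrophobic protein of the ISG12 family, gave 50.9% of the member UMIs of classical monocytes, 44.5% of those of nonclassical monocytes, 41.5% in S100a6-positive Cd4 T cells and 25.9% in Fcer2a B cells, with the pools summed. By pool it gave 35.6%, 38.7%, 56.3% and 47.6% in classical monocytes and 27.2%, 37.0%, 47.1% and 52.2% in S100a6-positive Cd4 T cells, lower in the young than in the old pools of both. In NK cells it stood at 75.6 CPM over all pools, against 4992 CPM in classical monocytes, and Sp100 led there with 16.5% of member UMIs. Slfn2 and Sp100, a nuclear body protein, were next in most types. Since the 3′ chemistry counts 1 tag per captured transcript, UMIs of different genes were compared without division by length. Ifi27l2a lies at chr12:103442167-103443680 on the minus strand in the GENCODE vM21 annotation of mm10, between its relatives Ifi27 (chr12:103434211-103440239, plus strand) and Ifi27l2b (chr12:103450898-103457223, minus strand). In the RefSeq model Ifi27l2a spans chr12:103433873-103443680 and covers Ifi27, so that how reads of these related neighbours were divided is uncertain.

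Members did not all follow the same order of cell types. Over the types with at least 50 cells and with the pools summed, 20 of the 43 members were highest in classical monocytes, 10 in dendritic cells, 5 in Vpreb3 B cells (which resemble transitional B cells by that marker), 3 in S100a6-positive Cd4 T cells and 2 in NK cells, and 1 each in S100a6 B, Ccl5-low Cd8 T and Adm B cells. Ifi204, a DNA sensor of the interferon-inducible p200 family, was close to a myeloid gene. Classical monocytes had 373, 331, 369 and 289 CPM of Ifi204 in young 1, young 2, old 1 and old 2, while Fcer2a B cells had 0, 1, 3 and 1 UMIs. Gbp7 (80.4 CPM) and Sp110 (181 CPM) were highest in NK cells, and Ifi47, an immunity-related GTPase, in Ccl5-low Cd8 T cells (189 CPM). Samd9l, a restriction factor, was highest in Vpreb3 B cells at 89.6 CPM, next to 75.9 CPM in Fcer2a B cells. The pools enter these sums with unequal weights. Taken pool by pool, 23, 21, 17 and 7 members were highest in classical monocytes in young 1, young 2, old 1 and old 2, and 6 of the 43 had the same leading type in every pool, Ifi204 among them. Some gates that led in old pools were very small. Ccl5-low Cd8 T cells led for 7 members in old 1 from 3 cells, and S100a6-negative Cd4 T cells for 4 and 6 from 7 cells per old pool. Dendritic cells, 10 to 18 per pool, led for Ddx60, Ifit2 and Ifi44 at 15.4 CPM each in the summed pools. Gbp7, Sp110 and Samd9l kept their leading type in 1 of the 4 pools each and Ifi47 in 2.

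**Figure D2:**
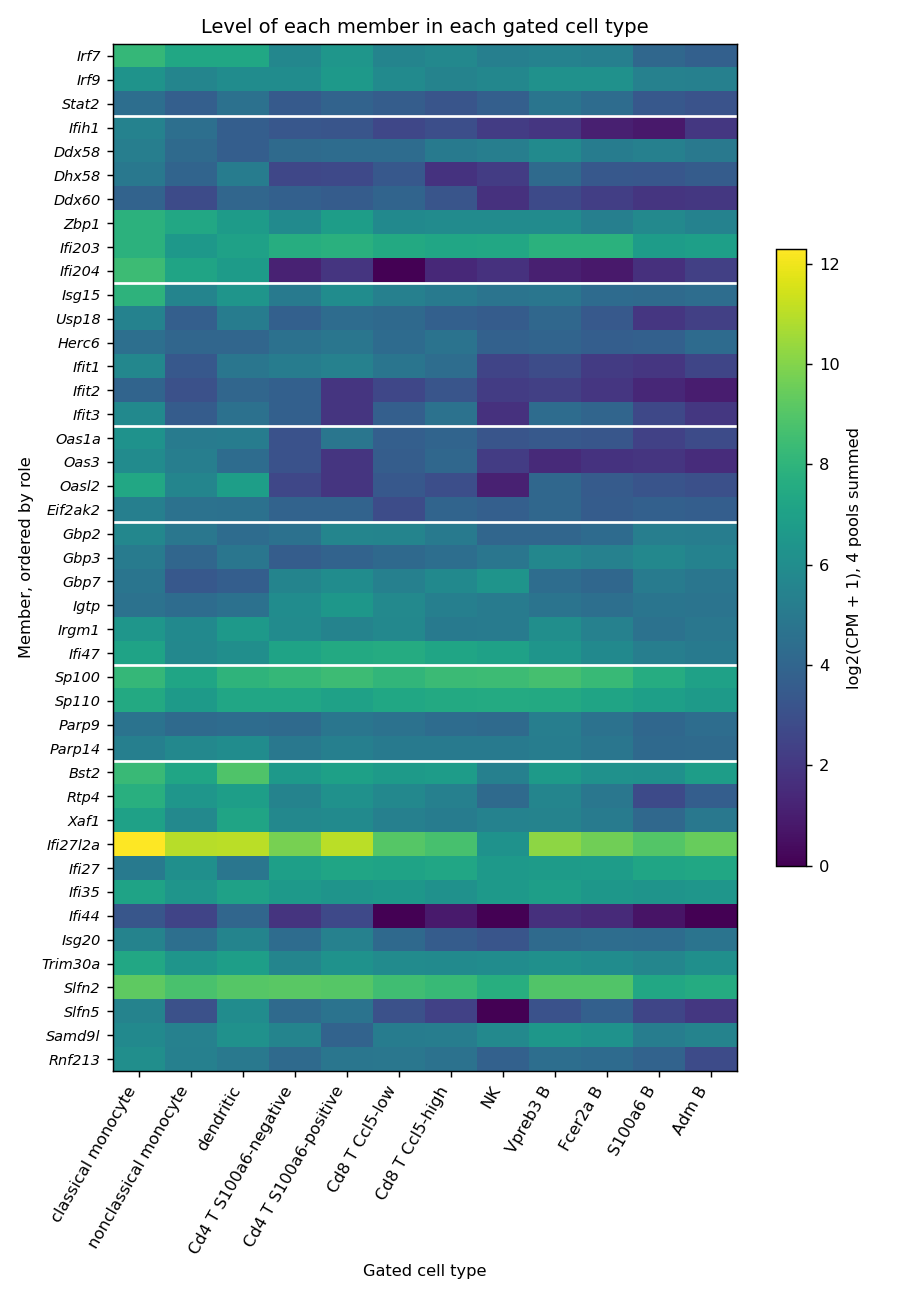
Level of each of the 43 members (rows, ordered by role, white lines between roles) in 12 gated cell types (columns), as log2 of CPM plus 1 over the UMIs of all 4 pools. Ifi27l2a has the highest level in every column but NK, Ifi204 stands out in the monocyte columns, and Slfn2 and Sp100 are at 129 CPM or more in every column.

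Between classical monocytes and Fcer2a B cells of the same pools, 30 of 43 members were called higher and 1 lower in the monocytes, where 21.5% and 23.3% of all 9661 genes tested were called higher and lower (edgeR quasi-likelihood test with pool as a block, adjusted p under 0.05). The median log2 fold change of members was 1.56, against -0.21 over all genes. Counts by role were uneven. All 6 of the IFIT and ISG15 family and all 4 of the OAS and PKR group were called higher, as were 5 of 7 cytosolic sensors, 10 of 13 membrane, mitochondrial and other effectors and 3 of 6 interferon-inducible GTPases. Among the nuclear body and PARP genes 1 of 4 was called higher, and of ISGF3 and IRF7 1 of 3.

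Isg15, which is joined to other proteins as a tag, had 225, 189, 260 and 236 CPM in classical monocytes and 11.5, 17.5, 36.6 and 10.5 CPM in Fcer2a B cells, in the order young 1, young 2, old 1, old 2. The monocytes were higher in each pool by far more than the spread between pools (log2 fold change 3.59, SE 0.20, adjusted p = 1.59e-73). Irf7 was at 295, 290, 330 and 236 CPM in the monocytes and 35.0, 31.5, 61.7 and 24.4 CPM in the B cells (log2 fold change 2.95, SE 0.17, adjusted p = 2.77e-66). Oasl2, an OAS-like antiviral protein, was 3.97 log2 units higher in the monocytes (SE 0.23), and Oas3, which makes the messenger that activates RNase L, 4.60 (SE 0.37). Ifit1 was 4.11 higher (SE 0.37) and remained so at 4.81 without young 2. Ifih1, the sensor MDA5, was at 21.1 to 55.3 CPM in classical monocytes and between 0 and 3 UMIs per pool in Fcer2a B cells.

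By contrast Irf9 and Stat2, the partners in ISGF3, showed no called difference. Irf9 had 77.3, 70.9, 88.5 and 66.3 CPM in the monocytes and 64.0, 67.6, 85.4 and 98.9 CPM in the B cells, which overlap. Sp100 also overlapped, at 288, 242, 341 and 243 CPM against 312, 313, 337 and 270 CPM. Ifi27 was the single member called lower, with 35.1, 23.6, 31.8 and 30.6 CPM in classical monocytes and 95.8, 90.8, 144 and 137 CPM in Fcer2a B cells (log2 fold change -1.96, SE 0.23, adjusted p = 2.03e-16). Of the 31 calls, those of Ddx60, Herc6, Ifit2 and Parp14 were lost without old 1, and that of Ddx60 also without old 2.

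Within monocytes, nonclassical cells, which patrol vessel walls, had less of most members than classical cells. Of 42 members tested, 28 were called lower and 1 higher in nonclassical monocytes, where 7.11% and 7.39% of 7049 genes were called lower and higher. The median log2 fold change was -1.03 for members and 0.01 over all genes, and 2 of the 42 members had a positive value. The median was lowest for the IFIT and ISG15 family (-2.15) and nearest 0 for the nuclear body and PARP genes (-0.64).

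Isg15 in nonclassical monocytes was at 54.5, 53.0, 39.0 and 38.7 CPM, below the lowest classical value in every pool (log2 fold change -2.41, SE 0.22, adjusted p = 5.05e-14). Ifit3 (log2 fold change -2.67, SE 0.42, adjusted p = 9.81e-07) and Ifit1 (-2.50, SE 0.46, adjusted p = 2.29e-05) were lower too, both from few UMIs (between 0 and 4 per pool in nonclassical monocytes). Ifi27l2a was lower in each pool, at 1227, 1537, 2957 and 1742 CPM (-1.18, SE 0.07, adjusted p = 6.3e-23). Bst2, or tetherin, which holds budding virus on the cell surface, had 471, 284, 346 and 270 CPM in classical and 143, 115, 174 and 155 CPM in nonclassical monocytes, without overlap (log2 fold change -1.22, SE 0.16, adjusted p = 8.15e-09). Ifi27 went the other way, at 54.5, 66.3, 81.5 and 66.3 CPM in nonclassical monocytes (log2 fold change 1.14, SE 0.30, adjusted p = 0.00467), a call that was lost without old 1 (1.03, adjusted p = 0.105). With a pool left out, between 17 and 24 of the members were called lower, 17 without old 1. DESeq2 called 15 lower and 0 higher.

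**Figure D3:**
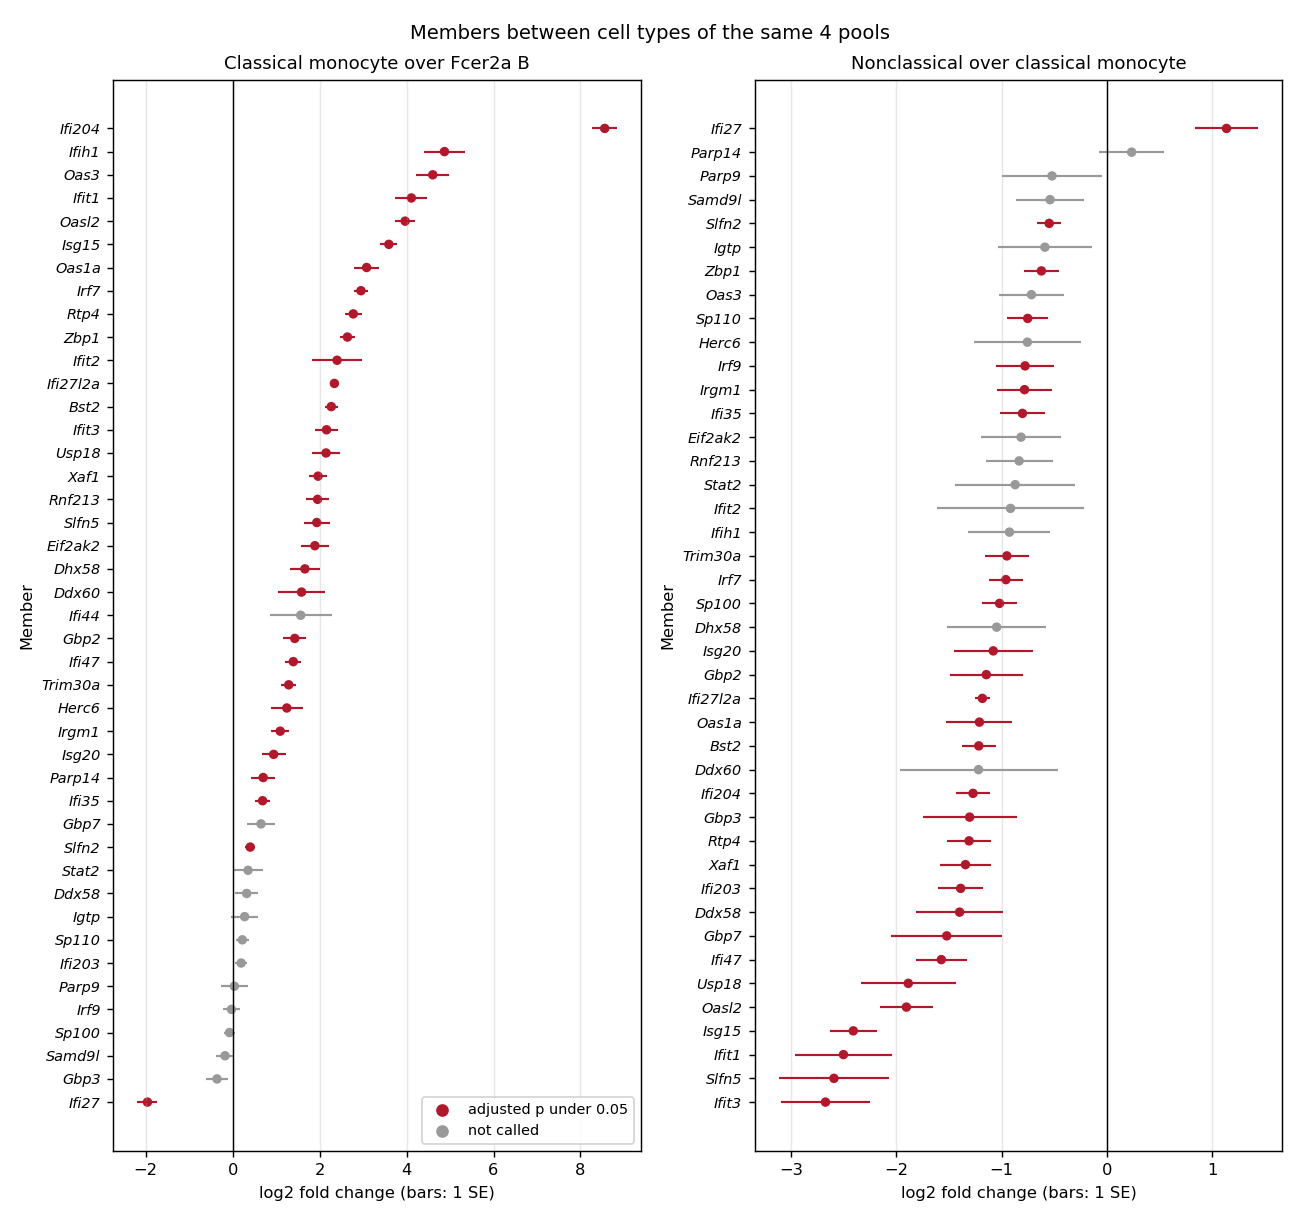
Log2 fold change of each member (y axis, ordered by value) in classical monocytes over Fcer2a B cells (left) and nonclassical over classical monocytes (right). Bars are 1 SE, approximated from the F value of the edgeR test. Red points passed an adjusted p of 0.05: 31 of 43 on the left, 30 of them above 0, and 29 of 42 on the right, 28 of them below 0.

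Dendritic cells numbered 10 to 18 per pool and plasmacytoid dendritic cells, the strongest makers of type I interferon, 1 or 2, so that neither was tested. Bst2, a known surface marker of mouse plasmacytoid cells, stood at 3397, 6217, 6237 and 2900 CPM in the plasmacytoid cells, from 31, 33, 9 and 33 UMIs. Dendritic cells had 563, 651, 429 and 377 CPM of Bst2. Irf7 in plasmacytoid cells rested on 4, 0, 2 and 4 UMIs.

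Among lymphocytes, Cd4 T cells had more Ifi27l2a than Cd8 T cells, and NK cells had least. Because the S100a6-negative Cd4 T and Ccl5-low Cd8 T gates held only 7 and 7 and, respectively, 3 and 11 old cells, wider gates of all Cd4 and all Cd8 T cells were added after the data had been seen. Cd4 T cells had 851, 843, 3238 and 3737 CPM of Ifi27l2a and Cd8 T cells 414, 340, 722 and 951 CPM, lower in each pool (log2 fold change -1.41, SE 0.11, adjusted p = 1.79e-37). Slfn2 was also lower in Cd8 T cells, at 354, 308, 308 and 298 CPM against 592, 449, 564 and 711 CPM (log2 fold change -0.62, SE 0.11, adjusted p = 3.23e-06). These were the only calls among 40 members, 0 higher and 2 lower, where 2.77% and 1.57% of genes were called higher and lower. In the narrower gates the same 2 genes were called among 33 members (Ifi27l2a -0.68, adjusted p = 1.24e-05; 0.718% of genes called higher and 0.489% lower). There, the log2 fold change of Ifi27l2a was -1.32 without young 1, and the call of Slfn2 was lost without either young pool.

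NK cells, which kill infected cells and respond to interferon, had 11 of 34 members called lower and 0 higher than Cd4 T cells, against 9.54% lower and 8.10% higher of 6952 genes. For Ifi27l2a the log2 ratio was -4.36 (SE 0.19, adjusted p = 2.68e-113). Slfn2 had 242, 193, 149 and 196 CPM in NK cells (-1.65, SE 0.17, adjusted p = 5.05e-21). Slfn5, another Schlafen protein, had 0 UMIs in all 4 NK pools and 11, 4, 3 and 5 UMIs in Cd4 T cells, too few to be tested without young 1, young 2 or old 2. Bst2 was lower as well (-1.59, SE 0.28, adjusted p = 3.42e-07). Without young 1, Ifit1 moved from -2.95 to -3.75 and Rtp4 from -1.76 to -2.58. Ifit1, Rtp4, Igtp, Ifi203, Isg20, Irf7 and Ifi27 were the other calls, of which Igtp, Ifi203, Isg20, Irf7 and Ifi27 were each lost without at least 1 pool. Between 5 and 9 members were called lower with a pool left out, 5 without young 2. Against S100a6-negative Cd4 T cells the count was 6 of 30 lower and 0 higher (6.30% lower and 8.53% higher over all genes). It was 2 without either young pool, where Ifit1 and Rtp4 had too few UMIs to be tested without young 1.

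Across B cells, S100a6 B cells, which numbered 186 and 127 in young and 1304 and 371 in old pools, had fewer transcripts of many members than Fcer2a B cells. Of 41 members, 15 were called lower and 3 higher, where 6.69% and 8.23% of 10280 genes were called lower and higher. Slfn2 had 249, 260, 123 and 216 CPM in S100a6 B and 520, 479, 497 and 425 CPM in Fcer2a B cells (log2 fold change -1.19, SE 0.13, adjusted p = 4.76e-08), and was lower in each pool. Sp100 (-0.58, SE 0.10), Samd9l (-0.93, SE 0.15) and Irf9 (-0.74, SE 0.16) were also called lower, without a loss of the call when a pool was left out. Old 1 decided many of the others. Without it 5 members were called lower, and Rtp4, a Golgi chaperone that curbs viruses, moved from -2.36 to -1.0, Irf7 from -1.13 to -0.44, Ifit3 from -1.59 to -0.56 and Xaf1 from -0.82 to -0.18. Without a pool block 8 members were called lower, and DESeq2 called 4.

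The 3 members called higher in S100a6 B cells were all guanylate-binding proteins, GTPases that coat pathogen vacuoles. Gbp2 had 30.1, 40.5, 36.9 and 40.3 CPM in S100a6 B against 12.4, 15.5, 29.4 and 22.1 CPM in Fcer2a B cells (log2 fold change 0.91, SE 0.20, adjusted p = 0.00166). Gbp7 was at 30.1, 27.0, 35.3 and 34.0 against 12.4, 15.5, 25.1 and 12.8 CPM (0.97, SE 0.21, adjusted p = 0.00107). Both were higher in each pool. Gbp3 (0.46, adjusted p = 0.0448) was lost without any of young 1, young 2 or old 2. The genes lie side by side, Gbp7 at chr3:142530342-142550149, Gbp3 at chr3:142560026-142573209 and Gbp2 at chr3:142620602-142638008, and their sequences are related. Against Fcer2a B cells, Vpreb3 B cells had 3 of 39 members higher (Ifi27l2a, Ddx58 and Sp100) and 0 lower, beside 1.97% and 2.18% of 9391 genes, and none of these calls held without old 1.

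With age, the summed level of members was higher in T cells of both old pools. The summed share in Ccl5-high Cd8 T cells, the gate of effector and memory cells, was 0.227% and 0.199% in young and 0.379% and 0.376% in old pools, or 1.77-fold. In S100a6-positive Cd4 T cells it was 0.395% and 0.378% against 0.643% and 0.749%, or 1.80-fold. The old pools lay above both young pools in each case. Without Ifi27l2a the ratio kept its direction but was smaller, at 0.64 on the log2 scale in place of 0.83 in Ccl5-high Cd8 T cells and at 0.41 in place of 0.85 in S100a6-positive Cd4 T cells. No test was made of these sums, and an exact permutation test of 2 against 2 pools cannot give a p below 0.333. In sums over a gate, more cells of a strongly expressing kind and more RNA of these genes per cell cannot be told apart.

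In Ccl5-high Cd8 T cells 3 of 29 members were called higher in old mice and 0 lower, where 0.768% and 0.324% of 4945 genes were called higher and lower. Ifi27l2a had 234 and 244 CPM in young and 728 and 919 CPM in old pools (log2 fold change 1.72, SE 0.19, adjusted p = 9.74e-07). Ifi47 had 110 and 93.5 against 223 and 245 CPM (1.11, SE 0.24, adjusted p = 0.0120). Ifit1 had 5 and 0 UMIs against 14 and 5, or 10.2 and 0 against 54.8 and 35.1 CPM (adjusted p = 0.0417, 0.0575 without young 2), too few to be tested without any other pool. DESeq2 called 1 of the 29, Ifi27l2a, and gave no adjusted p for Ifi47 and Ifit1. The old pools lay above the young pools for 18 of the 29 members and below for 0, where 22.6% of genes lay above and 18.2% below. Among the members not called, Sp100 had 307 and 204 against 497 and 400 CPM (adjusted p = 0.0768) and Irf7 30.5 and 36.7 against 86.2 and 105 CPM. Irf7 values did not overlap between the ages. The median log2 fold change of members was 0.56, against -0.01 over all genes.

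In S100a6-positive Cd4 T cells, from 22 to 43 cells per pool, Ifi27l2a was the 1 call among 18 members (0.223% of 2243 genes were called higher and 0.0892% lower). It had 1075 and 1398 CPM in young and 3026 and 3915 CPM in old pools (log2 fold change 1.44, SE 0.21, adjusted p = 0.00763). The call was lost without old 1 (adjusted p = 0.428) or old 2 (adjusted p = 0.0720), with the direction kept. Over all Cd4 T cells the change was 1.86 (SE 0.16, adjusted p = 1.18e-06), the 1 call among 29 members beside 1.08% higher and 1.02% lower of 5094 genes. That wider gate also differs in its makeup, since S100a6-negative cells were 172 and 106 in young and 7 and 7 in old pools. All Cd8 T cells had 4 of 36 members higher and 0 lower (1.85% and 1.39% of 6713 genes), namely Ifi27l2a (1.07, SE 0.15), Sp100 (0.72, SE 0.17), Ifit3 (1.76, SE 0.49) and Ifi47 (0.71, SE 0.20). The makeup of this gate differs with age as well, with 212 and 97 Ccl5-low cells among 346 and 187 in young and 3 and 11 among 85 and 53 in old pools, so that a change in the mix of cells and a change within them cannot be told apart. Each of these 4 calls was lost without young 2, those of Sp100, Ifit3 and Ifi47 also without young 1 and without old 1, and that of Ifi47 without old 2 too. Over all T cells 2 of 41 were called higher, Ifi27l2a (1.23, SE 0.10) and Gbp3 (1.36, SE 0.33), and 0 lower, beside 2.57% and 1.66% of 9062 genes, and Gbp3 was lost without young 2 or old 1. DESeq2 called 1 of the 41.

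**Figure D4:**
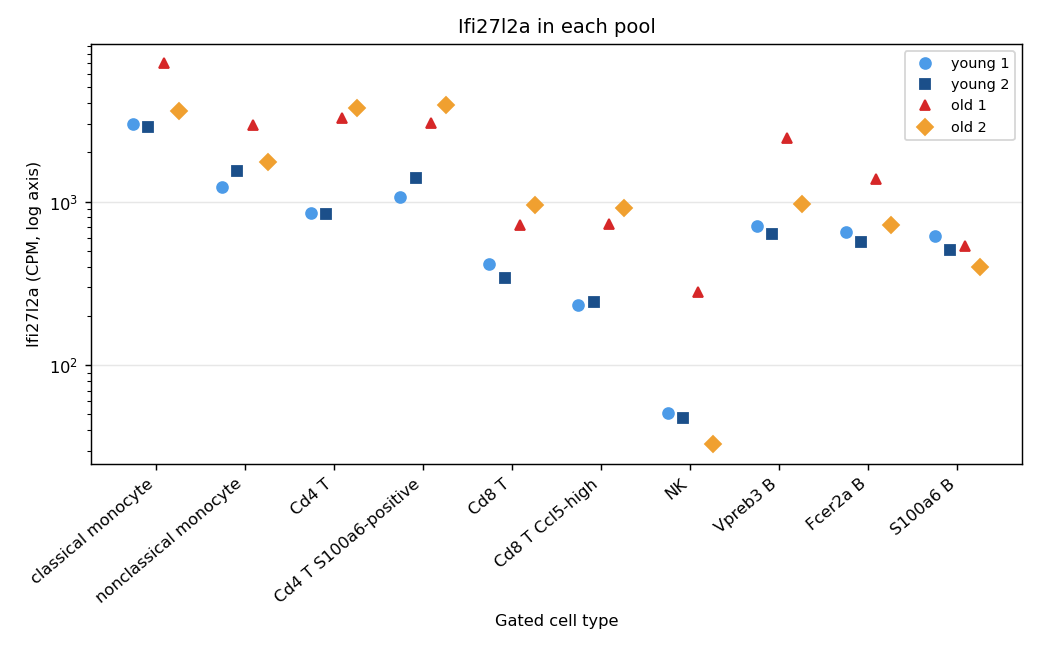
Level of Ifi27l2a (y axis, CPM, log axis) in each pool (points) of 10 gated cell types. Both old pools lie above the young pools in T cells (in Ccl5-high Cd8 T cells 728 and 919 against 234 and 244 CPM), while in NK cells old 1 alone is high (279 CPM against 32.7 to 50.9).

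In B cells the old pools differed from each other. Fcer2a B cells of old 1 had 1.44 times the mean young share of members, and those of old 2 had 0.966 times. Vpreb3 B cells had 1.98 and 1.09 times it, while S100a6 B cells had 0.892 and 0.885 times. Cells per pool were 830, 784, 543 and 275 in Fcer2a B and 200, 147, 160 and 61 in Vpreb3 B cells, with median depths of 2082 to 2282 and 2201 to 2358 UMIs. Of 38 members tested in Fcer2a B cells, 35 were higher in old 1 than in old 2, as were 55.5% of all 9049 genes. Old 1 alone lay above both young pools for 22 members, against 17.2% of genes, and old 2 alone for 0, against 15.4%. The median member had a log2 ratio to the young mean of 0.44 in old 1 and -0.20 in old 2 (CPM plus 5), where the medians over all genes were -0.03 and -0.07.

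Isg15, Rtp4 and Irf7 show the pattern. In Fcer2a B cells Isg15 had 11.5 and 17.5 CPM in the young pools, 36.6 CPM in old 1 and 10.5 CPM in old 2. Rtp4 had 18, 26.3, 55.3 and 16.3 CPM, and Irf7 35.0, 31.5, 61.7 and 24.4 CPM. For each of the 3 genes old 2 lay below both young pools, and none was called (adjusted p = 0.497, 0.463 and 0.628). Ifi27 was the 1 member called, with 95.8 and 90.8 against 144 and 137 CPM (log2 fold change 0.64, SE 0.13, adjusted p = 0.0264), where 0.729% of genes were called higher and 0.0884% lower. The call was lost without young 1 (adjusted p = 0.112) or young 2 (adjusted p = 0.103), and under DESeq2. Ifi27l2a had 648 and 568 against 1377 and 718 CPM (0.84, SE 0.19, adjusted p = 0.0639).

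In Vpreb3 B cells 2 of 34 members were called higher and 0 lower, beside 0.502% and 0.0152% of 6573 genes. Ifi27l2a had 707 and 635 CPM in young pools, 2463 CPM in old 1 and 964 CPM in old 2 (1.42, SE 0.22, adjusted p = 3.11e-05). Without old 1 the change was 0.66 (adjusted p = 0.000212). Usp18, the protease that removes ISG15 and damps the receptor, had 1, 2, 22 and 3 UMIs in young 1, young 2, old 1 and old 2 (3.48, SE 0.73, adjusted p = 0.00494), which was lost without young 1 (2.71, adjusted p = 0.473) and was 4.25 without young 2. Without old 1, which held 22 of its 28 UMIs, it had too few UMIs to be tested. DESeq2 called 0 of the 34. Members higher in old 1 than in old 2 were 28 of 34, against 58.1% of genes. Both old pools lay above both young pools for 14 of the 34 members and below for 1, against 13.9% and 22.2% of genes. Old 1 alone lay above for 13 members and old 2 alone for 3, against 19.4% and 15% of genes. Median log2 ratios of members to the young mean were 0.71 in old 1 and 0.17 in old 2. Over all genes these medians were -0.03 and -0.13.

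S100a6 B cells had 0 of 40 members called by edgeR in either direction, with 6 at an unadjusted p under 0.05, beside 0.271% higher and 0.0417% lower of 9583 genes. DESeq2 also called 0. Both old pools lay below both young pools for 14 of 40 members and above for 6, where 18.1% and 21.5% of genes did so. The summed share was 0.228% and 0.220% in young and 0.200% and 0.198% in old pools, without overlap. Slfn2 was at 249 and 260 CPM in young and 123 and 216 CPM in old pools (adjusted p = 0.624). Over all B cells, a gate added after the data had been seen and in which the mix of B types differs with age, 3 of 43 members were called higher and 0 lower, beside 1.98% and 0.718% of 10870 genes. They were Gbp2 (16.0 and 15.6 against 35.5 and 32.0 CPM), Gbp7 (14.6 and 17 against 30.4 and 29.3 CPM) and Ifi27 (log2 fold change 0.87, SE 0.16, adjusted p = 0.0490). All 3 calls were lost without either young pool, and DESeq2 called 3 higher and 3 lower. Gbp2 and Gbp7 are also those that were higher in S100a6 B than in Fcer2a B cells.

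Classical monocytes showed the same split of the old pools. Their summed share in old 1 was 1.58 times the young mean, and in old 2 it was 0.950 times. Without Ifi27l2a the shares were 0.538%, 0.456%, 0.547% and 0.393%, and the ages overlapped. Ifi27l2a had 2973 and 2879 CPM in young pools, 7038 CPM in old 1 and 3572 CPM in old 2 (log2 fold change 0.87, SE 0.17, adjusted p = 0.0106). It was the 1 call among 42 members, with 0 lower, beside 0.415% and 0.155% of 5788 genes, and without old 1 it was 0.28 (adjusted p = 0.817). Of the 42 members, 37 were higher in old 1 than in old 2, against 49.7% of genes. In nonclassical monocytes edgeR called 0 of 26 members in either direction, with 1 at an unadjusted p under 0.05, and DESeq2 called 0 higher (0.280% of 4289 genes were called higher and 0 lower). There Ifi27l2a had 1227 and 1537 against 2957 and 1742 CPM (0.79, SE 0.20, adjusted p = 0.0956).

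In NK cells the summed level differed little between the ages. Their summed share in the old pools was 1.02 and 0.878 times the young mean, and the old pools lay above the young pools for 0 of 22 members and below for 5, where 12.9% and 24.6% of genes did so. Ifi27l2a was called (1.95, SE 0.44, adjusted p = 0.0304; 0.194% of 4635 genes called higher and 0.0431% lower), but the ages overlapped: young pools had 50.9 and 47.6 CPM, old 1 had 279 CPM and old 2 had 32.7 CPM. Without old 1 the sign turned, to -0.53 (adjusted p = 0.935), and without old 2 the adjusted p was 0.106. Old NK cells numbered 41 and 23. Monocyte markers summed to 31.8, 14.0, 39.8 and 65.5 CPM in NK cells, against 2353 to 2680 CPM in classical monocytes. The NK values rest on few marker UMIs, out of totals of 314267, 357154, 100530 and 61094 UMIs, and do not rank the pools. The part of monocyte RNA in the NK level of Ifi27l2a was not tested.

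**Figure D5:**
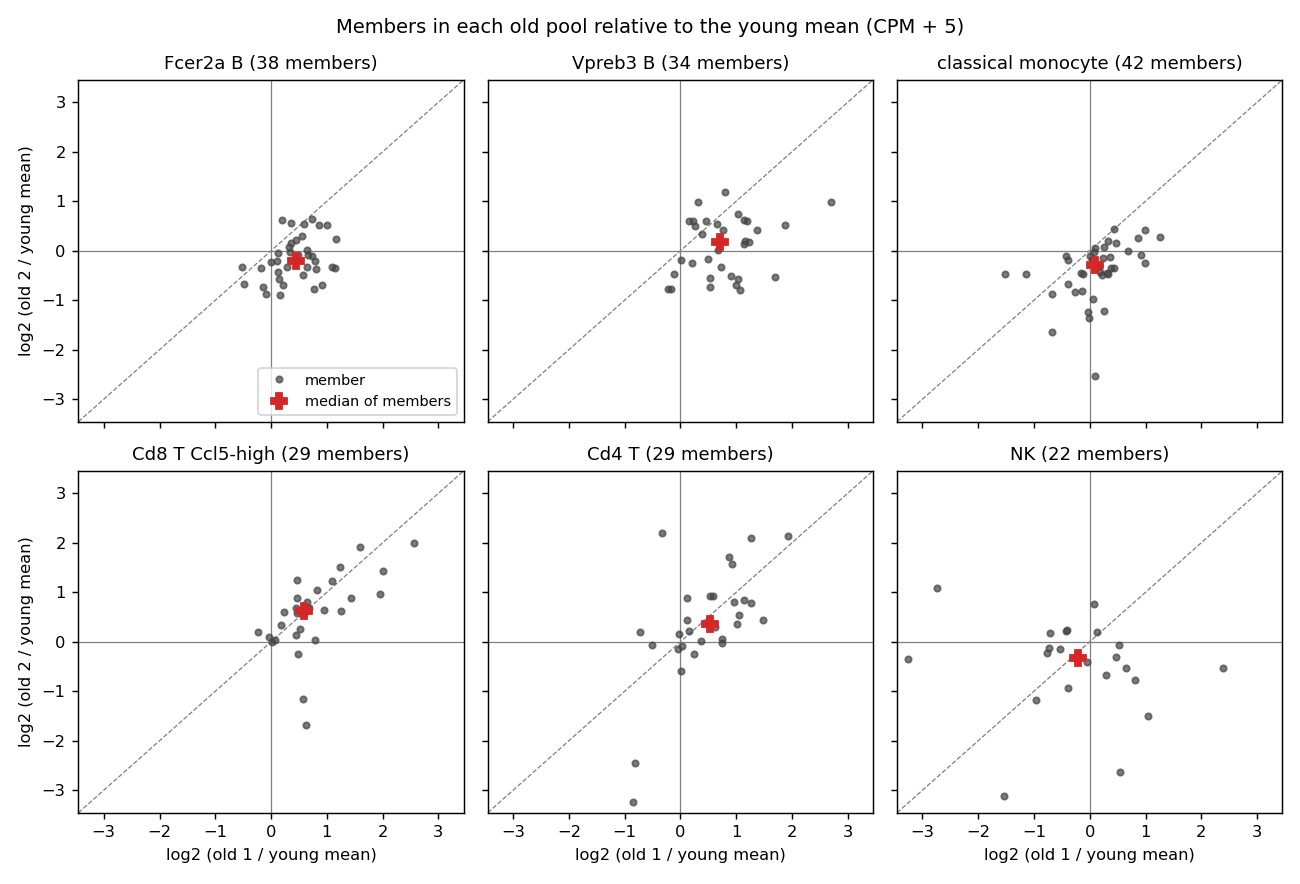
Each point is a member in 1 of 6 cell types, with the log2 ratio of old 1 to the young mean on the x axis and that of old 2 on the y axis (CPM plus 5), and the cross is the median. In Fcer2a B cells the cross stands at 0.44 and -0.20 and in classical monocytes at 0.09 and -0.29, below the dashed line of equal ratios, whereas in Ccl5-high Cd8 T cells it stands at 0.59 and 0.63, near that line.

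Whether the age change of Ifi27l2a differs between types was tested as an interaction with pool as a block, in comparisons that share the same 4 pools. Between classical monocytes and Fcer2a B cells 0 of 43 members differed by edgeR (0.0828% of 9661 genes larger in monocytes and 0.0725% smaller), with 5 members at an unadjusted p under 0.05. On simulated counts this test recovered 0% of differences of 2-fold and 16.5% of those of 4-fold. Between all Cd4 T and Fcer2a B cells the log2 change of Ifi27l2a was 0.85 larger in the T cells (SE 0.11, adjusted p = 1.5e-11), the 1 of 40 members called, with 0 smaller. The median gene of that fit stood at -0.29, and 0.352% and 2.05% of genes were called larger and smaller. Without old 2 the difference was 0.36 (adjusted p = 0.0946) and without old 1 it was 1.47. Cd8 T cells had a smaller change than Cd4 T cells (difference -0.74, SE 0.16, adjusted p = 0.00399), the 1 call among 40 members, with 0.102% of 7874 genes smaller, 0.0889% larger and a median of 0.11, and it was lost without any 1 of the pools. Both of these wide gates change in makeup with age, and in the narrower gates the order of the changes turned, with 1.72 in Ccl5-high Cd8 T and 1.44 in S100a6-positive Cd4 T cells, a difference that was not tested. Also in the narrower gates S100a6-negative Cd4 T cells, with 7 old cells in each pool, had a larger change than Fcer2a B cells (0.77, SE 0.18, adjusted p = 0.00197), 1 of 40 members, where the median gene stood at -1.16 and 0.0970% and 1.58% of 9278 genes were called larger and smaller. That call was lost without young 1, young 2 or old 2. Between Ccl5-low Cd8 T and S100a6-negative Cd4 T cells edgeR called 0 of 33 members, with 3 at an unadjusted p under 0.05, beside 0 larger and 0.0326% smaller of 6131 genes.

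The share of cells with a UMI of Ifi27l2a was compared after each cell had been thinned to 1000 UMIs. Ccl5-high Cd8 T cells with it were 16.4% and 16.7% in young and 47.6% and 45.2% in old pools. In Fcer2a B cells the share was 37.3%, 36.6%, 61.7% and 42.2% in young 1, young 2, old 1 and old 2, and in Vpreb3 B cells 38.0%, 32.0%, 81.2% and 47.5%. NK cells, the type with least of the gene, had it in 3.70%, 5.19%, 22.0% and 0%, where 0 of 23 cells allows up to 14.8% (exact binomial). RNA free in the suspension can give such UMIs, and its part in these shares was not tested. The NK share of old 1 was itself above those of the young pools. Unthinned, the shares were 36.6%, 42.2%, 65.9% and 71.4% in Ccl5-high Cd8 T cells.

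Classical monocytes had the largest share of cells with several members at once among types with at least 50 cells. With UMIs of at least 3 of 12 strongly inducible genes (Isg15, Ifit1, Ifit2, Ifit3, Usp18, Rtp4, Oasl2, Irf7, Zbp1, Ifi44, Ifi204 and Dhx58) at 1000 UMIs, they were 15.8%, 15.9%, 31.7% and 10.5% of classical monocytes. The list holds Ifi204, which Fcer2a B cells nearly lack. With the pools summed, Isg15, Irf7, Oasl2 and others of it are also highest in classical monocytes. The order of the types is thus in part built into the list. Such cells numbered 179 over all B and all T cells, NK cells and the named monocyte, dendritic, plasmacytoid, macrophage and basophil types. Of these, 79 were classical monocytes, 53 B cells and 27 T cells. The 95% interval, which covers the sampling of cells within 1 pool and not the spread between pools, was 24.8% to 39.4% for old 1 and 5.70% to 17.3% for old 2. Among Vpreb3 B cells 9 of 160 cells of old 1 (5.63%, 2.60% to 10.4%) and 0 of 200, 147 and 61 cells of the other pools passed. Fcer2a B cells had between 0.364% and 1.29% and NK cells between 0% and 0.741%.

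The rest of the pathway was looked at by lists. Of 10 interferons, Ifng was the 1 in the table, and NK cells had the highest level of it, with 22, 11, 10 and 4 UMIs, or 70.0, 30.8, 99.5 and 65.5 CPM. Among all genes tested in Fcer2a B cells, 0.729% were called higher in old mice and 0.0884% lower. Of the 14 genes for receptors and proximal signalling, 13 were tested there, with 1 higher and 0 lower. That gene was Socs3, an inhibitor of cytokine receptors, at 9.21 and 8.77 against 27.3 and 86.1 CPM (log2 fold change 2.57, SE 0.45, adjusted p = 0.00872). In each of the 7 other planned types edgeR called 0 of these genes, with 0 to 4 at an unadjusted p under 0.05. In the wider gates the counts went both ways. Over all genes, 0.718% were called lower in all B cells and 1.08% higher in all Cd4 T cells. Over all B cells 0 of 13 were higher and 1 lower, Ifnar1 (-0.76, SE 0.14, adjusted p = 0.0496), with 7 at an unadjusted p under 0.05. All Cd4 T cells had 1 of 12 higher, Socs3, and all Cd8 T cells 0 of 13 in either direction, with 6 at an unadjusted p under 0.05. Over all T cells Ifngr1, Socs1 and Socs3 were higher (3 of 13, beside 2.57% of all genes). Ifngr1, the ligand-binding chain for interferon gamma, was at 188 and 177 against 293 and 282 CPM there (0.53, SE 0.12, adjusted p = 0.0285). Levels of Ifngr1 were high in NK cells (866, 568, 836 and 835 CPM) and lowest in S100a6 B cells (96.9, 81.0, 33.8 and 65.8 CPM) among the tested types named here. Ifnar1, a chain of the type I receptor, had 54.8, 57.3, 54.5 and 46.6 CPM in Fcer2a B cells and 38.0, 27.0, 20.5 and 23.9 CPM in S100a6 B cells. Of 17 genes for upstream sensing and interferon regulatory factors, edgeR called 0 with age in each of the 12 gates, with 0 to 2 at an unadjusted p under 0.05.

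Among 73 further interferon-stimulated genes, Ly6a (Sca-1), a surface protein of activated lymphocytes, was called in the most types. It was higher in old mice in Fcer2a B, Vpreb3 B, S100a6-positive Cd4 T and Ccl5-high Cd8 T cells. In Ccl5-high Cd8 T cells it had 38.7 and 26.7 CPM in young and 384 and 302 CPM in old pools (log2 fold change 3.29, SE 0.27, adjusted p = 2.35e-09), and in Vpreb3 B cells 294 and 304 against 733 and 694 CPM (1.33, SE 0.18, adjusted p = 9.81e-07). In both types the old pools lay close to each other, which Ifi27l2a in Vpreb3 B cells did not. Sp140, a relative of Sp100, had 62.6 and 65.5 against 131 and 121 CPM in Fcer2a B cells (1.03, SE 0.14, adjusted p = 0.00121). In Fcer2a B cells 4 of 53 genes of that list were higher (Sp140, Ifitm2, Phf11b and Ly6a) and 1 lower (Ms4a4b). Over all genes tested there, 0.729% were called higher and 0.0884% lower. In Ccl5-high Cd8 T cells 3 of 36 were higher (Ly6a, Ms4a4b and Ms4a6b) and 0 lower, beside 0.768% and 0.324% of all genes. In S100a6 B cells, NK cells and both monocyte types edgeR called 0 of the list, with 4 to 13 at an unadjusted p under 0.05. Ms4a4b went opposite ways, from 1553 and 1175 to 2448 and 3093 CPM in Ccl5-high Cd8 T cells and from 56.6 and 58.3 to 31.6 and 23.3 CPM in Fcer2a B cells. The difference between those changes was not tested. T cell markers in Fcer2a B cells also fell, from 46.5 and 41.8 CPM in young to 13.6 and 6.98 CPM in old pools. The part of T cell RNA in the Ms4a4b level of that gate was not tested.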

How the data were processed

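The raw UMI counts per gene and cell were deposited by the authors, who made them with Cell Ranger on mm10 from 10x Chromium 3′ libraries, per the labels and the study's methods. Seurat 2.3.0 is named in the submitters' processing notes, and the values used here are not normalized. The study's methods add that the pools of each age were aggregated with Cell Ranger and that cells were filtered on genes and mitochondrial reads. The authors' list of cells gave the pool of each. Cells were gated by marker UMIs (at least 2 of a class, at most 1 of any other; some genes used are not reported here), cells with 3 or more platelet UMIs or over 10% haemoglobin UMIs were left out, and UMIs were summed per pool and type. No doublet caller was run, and cells with markers of a second class failed the gate. Ages were compared by edgeR 4.0.16 (quasi-likelihood, TMM factors, no pool block) in types with at least 15 cells in each pool, over genes with at least 20 UMIs, and types and interactions by the same test with the pool as a block. Adjusted p is Benjamini-Hochberg over all genes of a fit, called under 0.05. SE is the absolute log2 fold change divided by the square root of the F value of the edgeR test. It is an approximation, since edgeR itself gives no SE. DESeq2 1.42.0, R 4.3.3 and Python 3.11.15 were also used. Alternatives were another tool and scaling, other filters and gates, platelet-positive cells kept, a replicate block and each pool left out. Members called with age or between types, and the 3 with most UMIs in each type, were to be given by pool, the others by range and counts, and non-members only from fixed lists. Members outside this rule were chosen after their values were seen.

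On simulated counts, the test recovered 75.5% of 200 genes changed 4-fold and 1.5% changed 2-fold in the age comparison of Fcer2a B cells (9049 genes), and 48% and 6% in Ccl5-high Cd8 T cells (4945 genes). Among genes with high counts these were 100% and 2.5% and, respectively, 100% and 25%. Every simulated gene had the same fixed dispersion, not estimated from these data, and no pool effect. Recovery in the real counts may therefore differ. Total UMIs per pool were 11578490 and 11022561 (young) and 18658072 and 9521253 (old). The members, lists and wider gates were chosen with earlier results of these data known.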

Additional observations from a re-analysis of the deposited data

Results flagged for a closer look

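The age change of Ifi27l2a differed between cell types in 3 comparisons by the test of the difference itself. It was 0.77 log2 units larger in S100a6-negative Cd4 T cells than in Fcer2a B cells (edgeR, adjusted p = 0.00197) and 0.85 larger in all Cd4 T cells than in Fcer2a B cells (adjusted p = 1.5e-11). Between all Cd8 T and all Cd4 T cells the difference was -0.74 (adjusted p = 0.00399). Both wide gates change in makeup with age, and the narrower gates had the larger change in Cd8 cells, 1.72 in Ccl5-high Cd8 T against 1.44 in S100a6-positive Cd4 T cells, which was not tested. Each was lost without at least 1 pool, the first has 7 old cells in each pool, and the comparisons with wider gates were added after the data had been seen.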

How the results depend on the processing

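Leaving out 1 pool at a time assumes that a lone pool varies like the others. The counts in this section are given without the share of all genes called under the same setting. They show how far the calls depend on the setting and are no result about the members. Members called higher in old mice then numbered 1 to 6 in Fcer2a B, 1 to 8 in Vpreb3 B, 0 to 1 in S100a6 B (lower: 0 to 3), 0 to 1 in S100a6-positive Cd4 T, 2 to 5 in Ccl5-high Cd8 T, 0 to 1 in NK, 0 to 2 in classical monocytes (lower: 0 to 2), 0 to 1 in nonclassical monocytes, 1 to 2 in all Cd4 T and 0 to 3 in all Cd8 T cells. The upper counts of 6 and 8 were without old 2, and that of 5 was without young 1. Without old 2, S100a6 B cells had 3 called lower, and without old 1, classical monocytes had 2 called lower. Between types, the calls were 0 to 1 higher and 17 to 24 lower for nonclassical against classical monocytes, 5 to 14 lower for S100a6 against Fcer2a B, 0 to 5 higher for Vpreb3 against Fcer2a B, 1 to 2 lower for Ccl5-low Cd8 against S100a6-negative Cd4 T, 5 to 9 lower for NK against all Cd4 T and 2 to 6 lower for NK against S100a6-negative Cd4 T cells. Age changes called larger were 0 to 1 (smaller: 0 to 1) for S100a6-negative Cd4 T against Fcer2a B and 0 to 2 for all Cd4 T against Fcer2a B cells, and those called smaller were 0 to 1 for Ccl5-low Cd8 against S100a6-negative Cd4 T and 0 to 0 for all Cd8 against all Cd4 T cells. The change of Ifi27l2a in NK cells turned to -0.53 without old 1 and was 2.57 without old 2.

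With DESeq2, members called higher in old mice were 0 in Fcer2a B, Vpreb3 B, NK and classical monocytes and 1 in Ccl5-high Cd8 T and all Cd8 T cells. Between types it called 0 higher and 15 lower for nonclassical against classical monocytes, 4 lower for S100a6 against Fcer2a B, 0 higher for Vpreb3 against Fcer2a B, 0 lower for Ccl5-low Cd8 against S100a6-negative Cd4 T, 2 for NK against S100a6-negative Cd4 T and 6 for NK against all Cd4 T cells. It gave no adjusted p for 6 of the members called by edgeR, which its counts therefore leave out: Ifi47 and Ifit1 in Ccl5-high Cd8 T, Ifi27l2a in NK and Ifit3 in all Cd8 T cells with age, Gbp7 between the monocyte types and Ddx58 between Vpreb3 and Fcer2a B cells. Without TMM factors the counts were 0 in Fcer2a B and 5 in Ccl5-high Cd8 T cells. With a UMI in 10% of cells required they were 0 in Fcer2a B, Vpreb3 B and NK cells, with filterByExpr 1 in Vpreb3 B and 0 in NK cells, and with no filter 5 in Fcer2a B and 1 in nonclassical monocytes, with 1 lower in S100a6 B cells. With platelet-positive cells kept they were 3 in Fcer2a B, 5 in Ccl5-high Cd8 T and 0 in NK cells.

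With a gate of 4 UMIs the counts were 2 in Fcer2a B, 5 in Ccl5-high Cd8 T and 0 in NK cells, 0 larger for S100a6-negative Cd4 T against Fcer2a B and 1 smaller for Ccl5-low Cd8 against S100a6-negative Cd4 T cells. With a gate of 1 UMI they were 0 in S100a6-positive Cd4 T, NK and classical monocytes, 2 in all Cd8 T, 0 higher in nonclassical against classical monocytes, 5 higher in Vpreb3 against Fcer2a B and 1 lower in Ccl5-low Cd8 against S100a6-negative Cd4 T cells. With that gate the log2 ratio of the summed shares was 0.54 in S100a6-positive Cd4 T, 0.99 in Ccl5-high Cd8 T and 0.60 in all Cd4 T cells. Without Ifi27l2a it was -0.14 in S100a6 B, 0.41 in S100a6-positive Cd4 T, 0.64 in Ccl5-high Cd8 T, -0.0810 in classical and -0.0528 in nonclassical monocytes, 0.43 in all Cd4 T and 0.47 in all Cd8 T cells. Classical monocytes with at least 3 core genes were 42.1%, 56.8%, 70.7% and 54.8% without thinning, and 34.2%, 34.1%, 50.3% and 25.0% had at least 2. For Vpreb3 B cells the values without thinning were 3.0% in young 1, 11.9% in old 1 and 6.56% in old 2.

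The replicate numbers did not pair the pools: deviations of same-numbered pools had correlations of -0.0346 to -0.263, all below 0. With a replicate block on these numbers 3 members were called higher in Fcer2a B and 5 in Ccl5-high Cd8 T cells. A crossed pairing, added after the data had been seen, called 2 and 5 there, 0 higher in classical and 1 higher in nonclassical monocytes, and 1 lower in S100a6 B cells. In the comparisons between types, leaving out the pool block gave 8 lower for S100a6 against Fcer2a B, 0 higher for Vpreb3 against Fcer2a B, 0 lower for Ccl5-low Cd8 against S100a6-negative Cd4 T and 1 lower for all Cd8 against all Cd4 T cells. The cause of these changes was not tested. Another 304 summary values kept their direction and their side of the threshold or moved by less than the limit.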

Other observations

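Plasmacytoid (6 cells), macrophage (14 cells) and basophil (29 cells) gates were too small for a comparison, and their levels are sums over the pools. In macrophages Ifi27l2a led the members, at 2973 CPM, and in basophils Slfn2 did, at 532 CPM or 31.2% of member UMIs. In the plasmacytoid gate Bst2 led, at 3889 CPM or 47.1% of member UMIs.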
